A study of Mus musculus with 12 samples.

Results

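The transcripts described here are the abundant short ones of a mouse eye data set: those with a listed length from 91 to just over 160 that averaged at least 100 counts over 6 mRNA-seq libraries and at least 100 counts over 6 ribosome profiling libraries. They were thus chosen by measured counts as well as by length, but not by any difference between genotypes, although that difference was known when the range of length was set. Of 63759 transcripts, 5378 fell in this range of length and 140 of those were abundant in both assays. Removal of 14 that repeated the counts of another in every library left 126 members, out of 32803 transcripts with distinct counts in the whole table and 3490 in the same range of length. The eyes came from mice at postnatal day 0.5 that were either WT or RNG140KO (knockout, KO), with 3 libraries of each genotype in each assay and no other allele or agent given. The labels do not say how the knockout was made, how many animals went into a library, or whether the numbered libraries of a genotype came from separate animals, so the p-values measure only the spread between libraries, which may be technical. The transcripts carry UCSC identifiers that are not paired here with gene names, so neither the knocked-out gene nor markers of the tissue were checked, and the genotypes rest on the labels. The unit of the listed length is not given in the sources used here.

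RNG140 is the RNA-binding protein encoded by Caprin2, a relative of Caprin1, and the lens is one of the tissues in which it is known. In mRNA-seq, reads come from positions along the length of the transcripts. In ribosome profiling, RNase I digests the RNA that ribosomes do not cover, and the protected fragments, or footprints, are sequenced. The ratio of footprints to mRNA of a transcript is used as a measure of how heavily it is loaded with ribosomes, its translation efficiency. A transcript only a few footprints long gives few positions at which a read can be placed. Whether the members are that short depends on the unit of the listed length, which is not given.

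The 126 members were not taken as 126 separate measurements. A total of 70 were taken to share reads with another member. The rule was a place within 10 rows of it in the table and a correlation of log2 counts above 0.99 over the 12 libraries. The counts were not scaled for depth, and the sharing of reads was not checked directly. The largest such group held 23 members. After the values were seen, 52 members were found to stand in 2 short runs of the table and to repeat a few listed lengths. The smaller run held 5 members within 6 rows, and the larger held 47 within 202 rows. In the larger run 14 members had a listed length of 117, 11 of 94, 10 of 121 and 8 of 127, and in the smaller run the lengths 117, 121 and 127 came back. How reads that match several near-identical transcripts were assigned is not given in the sources used here, so the values of these 52 are uncertain one by one. The other 74 members are given separately throughout.

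Within the larger run, members of 1 listed length had nearly the same footprint counts and less similar mRNA counts. Among the 11 members of length 94, the highest mean footprint count was 1.19 times the lowest, and the highest mean mRNA count was 4.21 times the lowest. Among the 14 of length 117 the same quotients were 1.46 and 4.01. Between lengths the footprint levels differed more: per 100 units of listed length, the median was 3484 CPM (counts scaled to a library total of 1000000) at length 117, 2193 at 94, 2101 at 127 and 615 at 121. The corresponding mRNA medians lay closer together, at 296, 410, 350 and 272 CPM per 100 units of length.

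The libraries differed in depth and in how much of it the members took. Totals ranged from 666464 to 1244104 counts in mRNA and from 327847 to 5966639 in footprints, and the lowest count of any member was 36 in the shallowest mRNA library and 7 in the shallowest footprint library. In mRNA the members took 2.12, 2.53 and 5.84% of all counts in the WT libraries 1 to 3, and 6.11, 8.31 and 8.22% in the KO libraries (3.50 ± 2.04% and 7.55 ± 1.25%, SD, n = 3 each). WT library 3 thus stood nearer to KO library 1 than to the other WT libraries. In footprints the WT shares were 7.54, 15.1 and 22.1% and the KO shares 15.7, 12.2 and 17.1% (14.9 ± 7.28% and 15.0 ± 2.50%), with every KO library inside the range of the WT libraries.

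**Figure D1:**
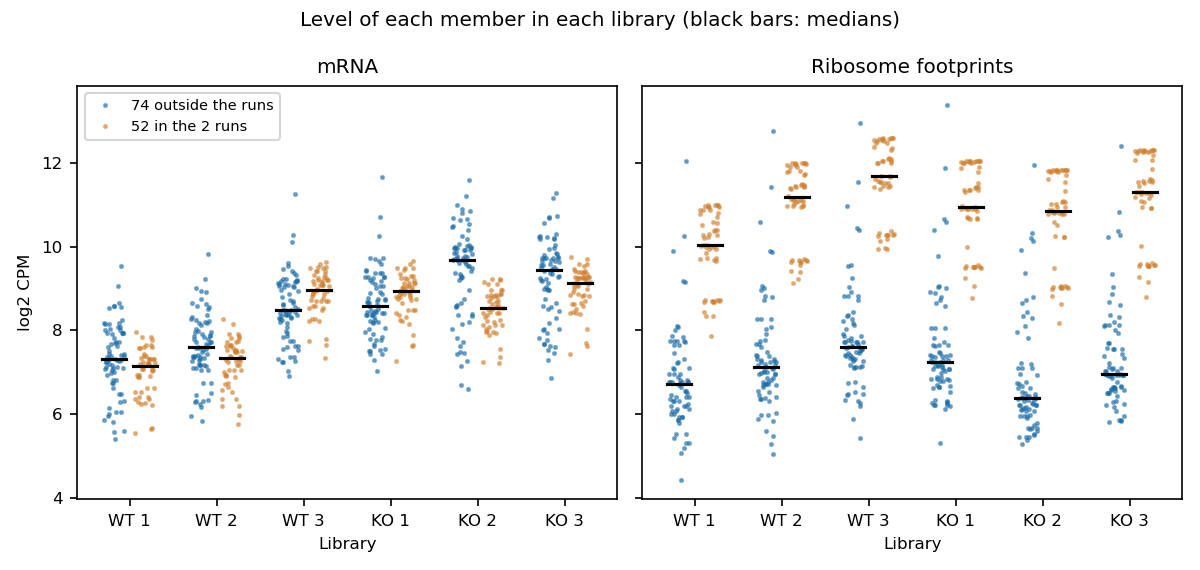
Level of the members in each of the 12 libraries as log2 CPM, mRNA on the left and footprints on the right, with each point 1 member, the 74 members outside the runs and the 52 in the runs drawn apart, and black bars at the medians. In mRNA the bars of WT libraries 1 and 2 stand for 143 to 194 CPM and those of the other libraries for 359.5 to 827 CPM; in footprints the KO bars do not stand apart from the WT bars in 1 direction, and the members in the runs lie far above most of the others.

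The mRNA of 66 of the 126 members rose in KO and that of none fell, by edgeR's quasi-likelihood test with Benjamini-Hochberg adjustment over all 14131 transcripts tested (adjusted p under 0.05). Over those transcripts, 9.16% rose. The median log2 fold change of the members, KO against WT, was 1.27 (range -0.17 to 2.12), beside 0.02 over all transcripts tested, and the median standard error was 0.43. The fold was positive in 125 members and at least 1 on the log2 scale in 93. In 62 members all 3 KO libraries lay above all 3 WT libraries after scaling, against 16.3% of all transcripts tested. In CPM without that scaling this held for 47 members, and the share of all transcripts was taken only after scaling. In tissue of mixed cells, a change in the number of cells of a type and a change in RNA per cell cannot be told apart.

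The rises lay mostly outside the runs. Of the 74 members outside, 58 rose, and these stood for 48 groups of shared reads. Their mRNA levels, as medians over the 74 members, were 159.6, 194 and 359.5 CPM in WT libraries 1 to 3 and 383, 827 and 696 CPM in KO libraries 1 to 3. WT library 3 was about level with KO library 1, and KO libraries 2 and 3 stood above the rest. In 57 of the 74 members, KO libraries 2 and 3 were the highest of the 6. Of the 52 members in the runs, 8 rose, and in none of the 52 were KO libraries 2 and 3 both above the other 4. Their medians were 143, 162 and 504 CPM in WT and 491, 372 and 565 CPM in KO, so WT library 3 lay among the KO libraries. The median log2 fold change was 1.65 outside the runs and 1.05 within them.

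**Figure D2:**
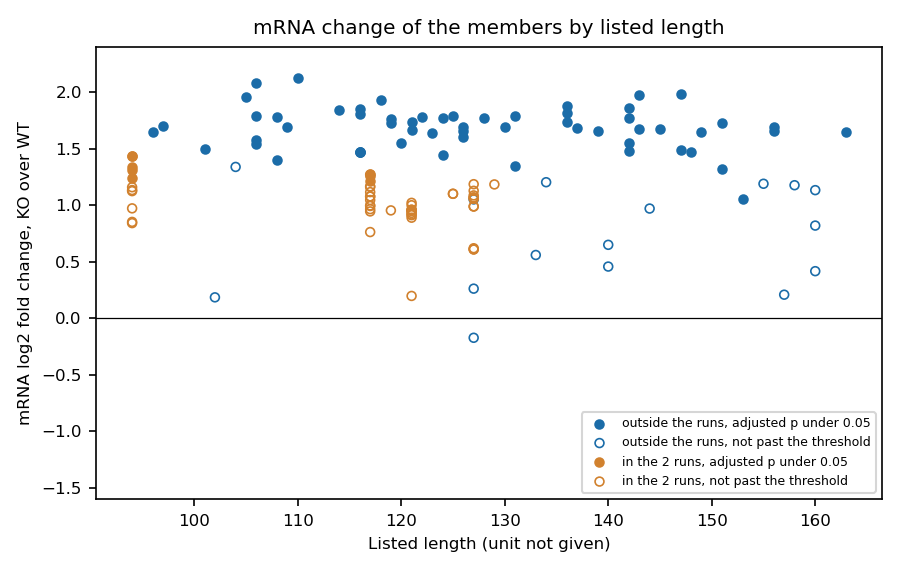
Log2 fold change of mRNA, KO against WT, for each member against its listed length, with members outside the runs and in the runs marked apart and those that rose drawn filled. Members of every length lie mostly above 0, with 58 of 74 outside the runs and 8 of 52 in the runs past the threshold.

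Among the members that rose with all KO libraries above all WT libraries, uc007ftc.1 had the smallest adjusted p. This transcript, with a listed length of 106, was measured at 47.4, 72.0 and 130.4 CPM of mRNA in WT and at 303, 286 and 289.9 CPM in KO. The KO libraries agreed closely and the highest WT library was well below the lowest of them, and the mRNA log2 fold change was 2.08 (adjusted p = 0.000518 by edgeR, SE 0.35). Its footprints were 103.7, 242 and 289.9 CPM in WT and 425, 345.5 and 296.5 CPM in KO, with a log2 fold change of 0.64 (adjusted p = 0.575 by edgeR, SE 0.62).

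The next such transcript, uc033hsd.1, has a listed length of 125. Its mRNA was 42.6, 57.0 and 119 CPM in WT and 219.9, 210.1 and 198 CPM in KO, again without overlap, with a log2 fold change of 1.79 (adjusted p = 0.00135 by edgeR, SE 0.33). Its footprints were 107, 179 and 281 CPM in WT and 447, 224 and 258 CPM in KO. The footprint ranges overlapped, and the footprint log2 fold change was 0.63 (adjusted p = 0.597 by edgeR, SE 0.64).

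In both of these transcripts KO library 1 was the highest, whereas KO libraries 2 and 3 were the highest in 54 of the 58 members outside the runs that rose. The member with the largest mRNA fold change had a listed length of 110 and mRNA levels of 152, 138 and 295 CPM in WT and 410.2, 1003 and 719.6 CPM in KO. Its mRNA log2 fold change was 2.12 (adjusted p = 0.00296 by edgeR, SE 0.44). Its footprints were low and overlapped, at 64.1, 59.0 and 81.1 CPM in WT and 76.6, 43.7 and 74.1 CPM in KO.

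The most abundant member in both assays, of listed length 104, did not pass the test. Its mRNA was 739.5, 908 and 2443 CPM in WT and 3266, 3095 and 2503 CPM in KO, and its footprints were 4237, 7026 and 7926 CPM in WT and 10789, 3985 and 5422 CPM in KO. WT library 3 was close to the KO libraries in mRNA, and the mRNA log2 fold change of 1.34 had a standard error of 0.61 (edgeR adjusted p = 0.139). A member of listed length 102 had one of the smaller mRNA folds, with 262, 384 and 524 CPM of mRNA in WT and 355, 333 and 428 CPM in KO (log2 fold change 0.18, adjusted p = 0.772 by edgeR, SE 0.36).

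The 16 members outside the runs that did not pass the mRNA test had a higher median footprint level than the 58 that rose, with overlapping ranges. Per 100 units of listed length the footprint level ran from 53.3 to 6312 CPM among the 16, with a median of 329.2 CPM, and from 40.9 to 268 CPM among the 58, with a median of 93.9 CPM. Their mRNA levels stood the other way, with medians of 188.5 CPM per 100 units of length among the 16 and 363 CPM among the 58. The median listed lengths were 140.0 for the 16 and 125.5 for the 58. These are descriptions of members sorted by their mRNA result, with no test.

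The mRNA calls rested on few libraries. Without WT mRNA libraries 1 and 2, which leaves 1 WT library assumed to vary like the KO libraries, 1 member rose, beside 1.22% of all transcripts tested. That member was uc007ftc.1, with a log2 fold change of 1.27 (edgeR adjusted p = 0.048), and the value for uc033hsd.1 was 0.92 (edgeR adjusted p = 0.163). The median over all members was then 0.29, with 93 members positive, and it was 0.89 outside the runs and 0.01 within them. Omission of KO mRNA libraries 2 and 3 leaves 1 KO library, assumed to vary like the WT libraries. The calls among the members were then lost, but far fewer of all transcripts passed edgeR's adjusted threshold as well. That loss is therefore not particular to the members. The median over all members was then 0.97, and uc007ftc.1 kept a log2 fold change of 2.08.

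Leaving out 1 library at a time moved the count in both directions. With WT library 1 or 2 left out, 22 or 14 members rose, beside 4.52 and 4.36% of all transcripts. Without WT library 3, which had the highest WT level in 125 members, 124 rose, beside 15.4%. Without KO library 1, 2 or 3 the counts were 57, 17 and 16, beside 7.14, 4.15 and 3.25%. The median log2 fold change of the members stayed between 0.91 and 2.05 over these 6 omissions.

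**Figure D3:**
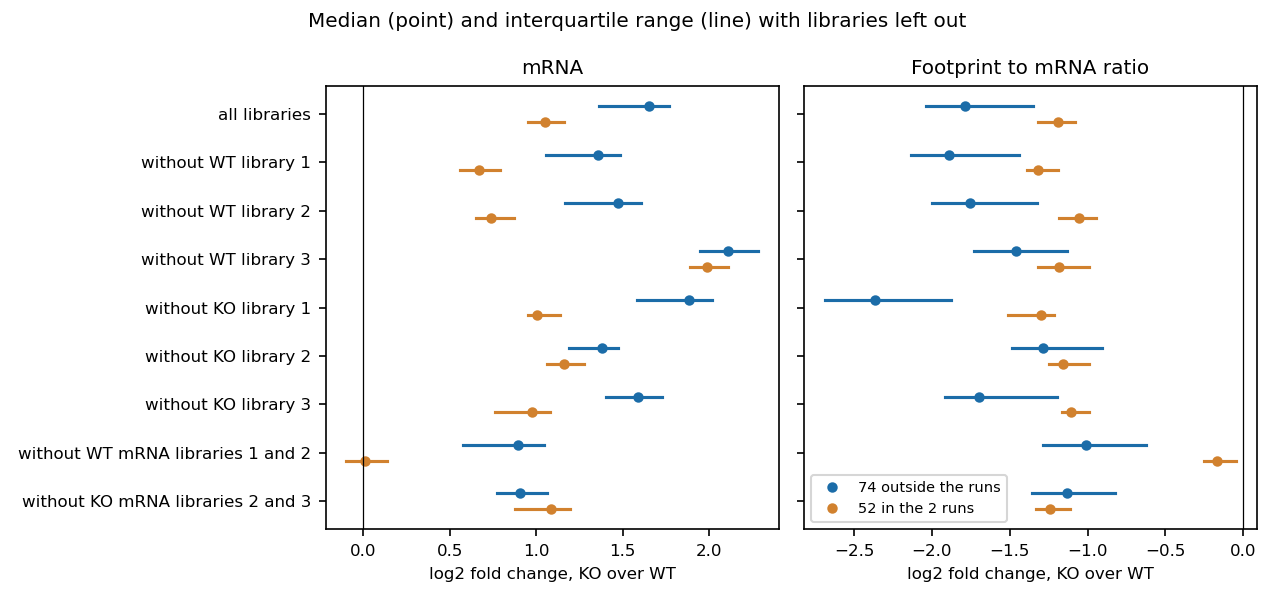
Median log2 fold change, KO against WT, with all libraries and with named libraries left out, for mRNA (left) and for the footprint to mRNA ratio (right), with the 74 members outside the runs and the 52 in the runs drawn apart (points, with lines for the interquartile range over members). Without WT mRNA libraries 1 and 2 the mRNA median falls from 1.65 to 0.89 outside the runs and from 1.05 to 0.01 within them, and the ratio median moves from -1.79 to -1.01 and from -1.19 to -0.17.

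Footprints of the members did not pass the test in either direction. None of the 126 was called by edgeR, and 1 had an unadjusted p under 0.05. Over all 17236 transcripts tested, edgeR called 1.12%, and 21.8% had an unadjusted edgeR p under 0.05. DESeq2 also called none of the 126, with 2 at an unadjusted p under 0.05. Its shares over all transcripts are not given here. The median footprint log2 fold change was -0.22 (range -1.07 to 0.90), with 103 members negative and a median standard error of 0.63, beside -0.02 over all transcripts. The sign of that median depended on single libraries: it was 0.53 without WT library 3, the deepest, and 0.00 without KO library 2. With WT library 3 left out, edgeR called 2 members higher in KO, beside 5.53% of all transcripts.

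The order of the footprint libraries was not the order of the mRNA libraries. Outside the runs the median levels were 105.2, 139 and 195 CPM in WT and 151, 83.4 and 124 CPM in KO, so that the KO libraries with the highest mRNA had footprint levels within or below the WT range. In the runs they were 1058, 2335 and 3321 CPM in WT and 1992, 1854 and 2541 CPM in KO, with WT library 3 highest in all 52 members and WT library 1 below the KO libraries. The members in the runs therefore had high footprint levels in both genotypes, and the KO medians lay inside the range of the WT libraries.

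After scaling, all 3 KO footprint libraries lay above all 3 WT libraries in 1 member, against 14.5% of all transcripts tested. This member, of listed length 105, had footprints of 39.7, 44.9 and 43.4 CPM in WT and 77.3, 67.1 and 102.4 CPM in KO, with a log2 fold change of 0.90 (adjusted p = 0.235 by edgeR, SE 0.43). Its mRNA rose as well, from 171, 201 and 379 CPM in WT to 469, 1062 and 923 CPM in KO.

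**Figure D4:**
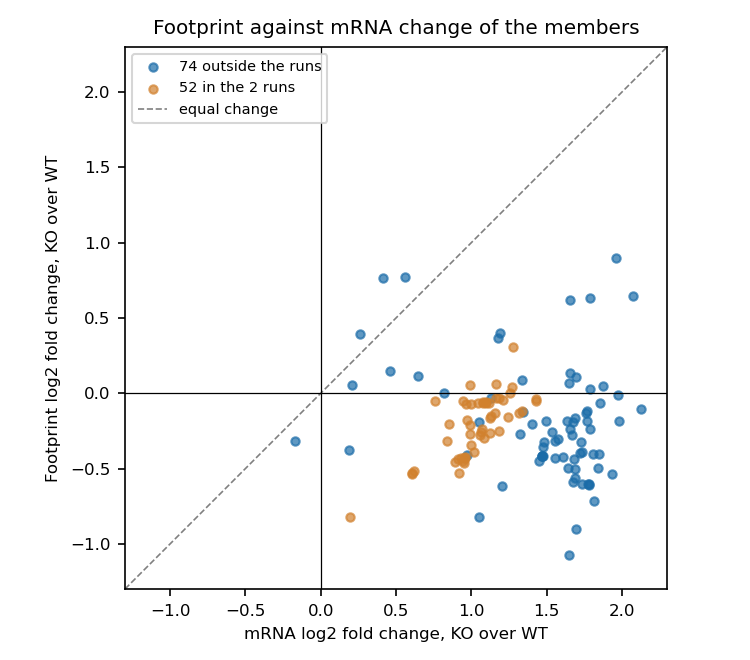
Log2 fold change of footprints against that of mRNA, KO against WT, for each member, with a line of equal change and members outside the runs and in the runs marked apart. Most points lie below the line: mRNA folds are positive in 125 members and footprint folds are negative in 103.

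The footprint to mRNA ratio was higher at the median in the runs than among the other members, with overlapping ranges. In log2 of footprint CPM over mRNA CPM, the median in WT was 3.27 in the runs and -0.72 outside them. In KO it was 2.19 and -2.40. The WT values ran from 0.56 to 5.15 in the runs and from -3.24 to 2.83 outside them. In KO they ran from -0.06 to 4.55 and from -4.79 to 1.79. How reads matching several near-identical transcripts were assigned is not given, so the levels in the runs are uncertain as a set too. Over all 686 abundant transcripts of any listed length the medians were -0.69 in WT and -0.66 in KO. The zero of this scale depends on the scaling: with TMM-scaled totals the medians were 4.14 in WT and 3.02 in KO in the runs, 0.15 and -1.56 outside them, and 0.19 and 0.17 over the 686. The sign outside the runs in WT therefore turned, while the median stayed close to that of all abundant transcripts in WT and below it in KO under both scalings. The highest ratio, 4.85 over both genotypes, belonged to a member of length 117 in the larger run, with 46.6, 73.5 and 215 CPM of mRNA in WT beside 1778, 3531 and 5317 CPM of footprints. The lowest, -4.01, belonged to a member of length 123 outside the runs, with 383, 492 and 778 CPM of mRNA in WT and 840.2, 1793 and 1668 CPM in KO beside 39.8 to 71.5 CPM of footprints in all 6 libraries. Since the abundance rule used these counts, the levels are a description.

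The change of the ratio between genotypes, tested as the interaction of assay and genotype in 1 edgeR model over the 12 libraries, was negative in 123 of 126 members, with a median of -1.34 on the log2 scale (range -2.61 to 0.42). The median over all 25927 transcripts tested was -0.07. No member passed edgeR's adjusted threshold, nor did any transcript of the table (0%), and the lowest adjusted p of a member was 0.221. An unadjusted p under 0.05 was reached by 52 members, all outside the runs, beside 9.9% of all transcripts. The median standard error of a member's ratio change was 0.82. With DESeq2 in place of edgeR, 12 members fell, all outside the runs and in 10 groups of shared reads, beside 0.143% of all transcripts that fell.

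The member with the lowest ratio change had a listed length of 96. Its mRNA was 65.9, 81.0 and 155 CPM in WT and 173, 297 and 317 CPM in KO, and its footprints were 94.6, 135 and 139 CPM in WT and 74.0, 45.9 and 57.1 CPM in KO. In CPM every KO library lay above every WT library in mRNA and below every WT library in footprints, though after scaling no member had all KO footprint libraries below all WT libraries. The ratio changed by -2.61 on the log2 scale (adjusted p = 0.221 by edgeR, SE 0.67, DESeq2 adjusted p = 0.0189). At the other end, a member of listed length 160 had 112.5, 106.5 and 165 CPM of mRNA in WT and 131, 176 and 116.5 CPM in KO, with a ratio change of 0.42 (adjusted p = 0.889 by edgeR, SE 0.74). For uc007ftc.1 and uc033hsd.1 the ratio changes were -1.34 (SE 0.76) and -1.06 (SE 0.78), with edgeR adjusted p of 0.575 and 0.684.

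The median ratio change stayed negative when libraries were left out, but its size varied. Without WT mRNA libraries 1 and 2 its median was -0.32, with 19 members positive, and it was -1.01 outside the runs and -0.17 within them. Without KO mRNA libraries 2 and 3 it was -1.20, and without WT footprint library 1 it was -1.77. By listed length in the larger run, with all libraries, the median ratio change was -1.22 at 94, -1.06 at 117, -1.32 at 121 and -1.27 at 127, beside mRNA medians of 1.16, 1.08, 0.95 and 1.07 and footprint medians of -0.15, -0.05, -0.43 and -0.26.

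Equally abundant transcripts of other listed lengths were set beside the members, with the same tests. The 114 in the next class of length, up to the bound of 330, had median log2 fold changes of 1.35 in mRNA and -0.20 in footprints, with 59 that rose and none that fell, and the 12 of length 90 or less had medians of 1.78 and -0.40, with 11 that rose. The 207 with lengths from 330 to below 1000 had a median mRNA change of 0.07, with 35 that rose and 18 that fell. The 227 of length 1000 or more had -0.33, with 5 that rose and 39 that fell. Over all transcripts tested, 9.16% rose in mRNA. The share of all transcripts that fell is not given here, so the counts of falls are a description only. Without WT mRNA libraries 1 and 2 the mRNA medians of the 5 classes, from shortest to longest and with the members second, were 0.99, 0.29, 0.55, -0.13 and -0.07. The nearest abundant transcripts outside the lower and upper bounds of the range had mRNA changes of 1.67 and 1.43 (1 transcript and the median of 2), and the nearest members inside had 1.16 and 1.65 (the median of 11 members, all in the larger run, and 1 member). In footprints the values outside were 1.23 and 0.10 and those inside -0.15 and 0.07. In the ratio they were -0.28 and -1.24 outside and -1.22 and -1.48 inside. At the lower bound 1 transcript thus stood apart from the members in footprints and ratio, and so few transcripts on either side do not show whether values change at the bounds.

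**Figure D5:**
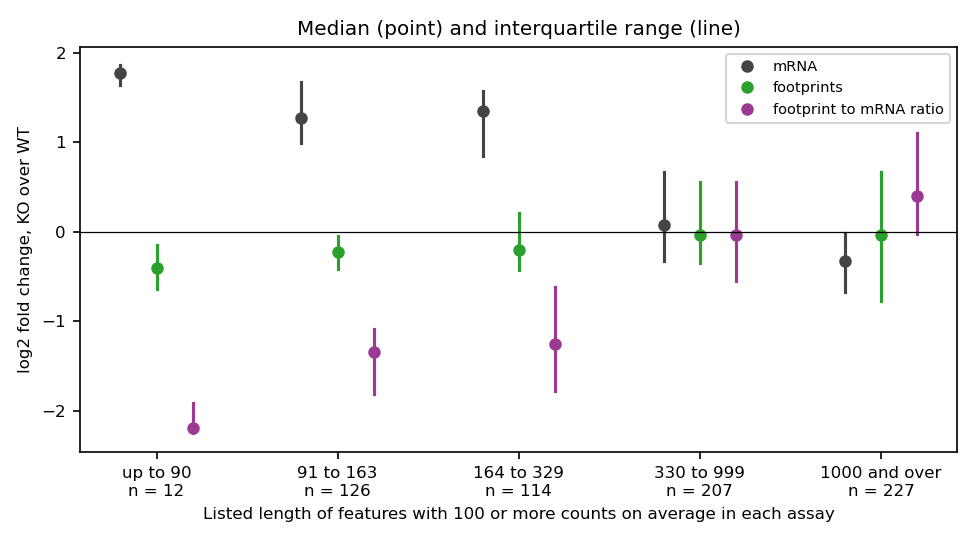
Median log2 fold change, KO against WT, of abundant transcripts in 5 classes of listed length, for mRNA, footprints and their ratio (points, with lines for the interquartile range over transcripts). The members and the classes on either side of them have mRNA medians from 1.27 to 1.78, and the classes from length 330 upward lie at 0.07 and -0.33.

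The floor of 100 counts decided which transcripts of this range were members. The member just inside it had a mean of 104.7 mRNA counts, with a listed length of 117, and the transcript just outside had 98, with a length of 133. In this range of length 261 transcripts reached the floor in footprints alone and 1 in mRNA alone. Of the less abundant transcripts of the same lengths, 532 could be tested in mRNA. Among these 30.8% rose and 1 transcript fell, with a median log2 fold change of 0.76. Within the members, Spearman's rho between listed length and mRNA change was 0.00 over the 126 members, which share libraries and may share reads. This rho was -0.28 over the 74 outside the runs and -0.34 over the 52 within.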

How the data were processed

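Messenger RNA and ribosome footprints of eyes from WT and RNG140KO mice at postnatal day 0.5 were measured in 12 libraries. The authors deposited whole-number counts per transcript for each library, with a listed length (in an unstated unit) per transcript, missing for 17340. TopHat2 2.0.9, Bowtie2 2.3.4.2 and CASAVA 1.8 are the tools, and mm10 the build, per the submitters' processing notes. Neither the counting tool nor its handling of multiply matching reads is given in those sources. Per the labels, mRNA libraries were made with a stranded kit.

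Transcripts with the same 12 counts were merged, and members were those of length 91 to 163 with means of at least 100 counts in each assay. Genotypes were compared with edgeR 4.0.16 (R 4.3.3, limma 3.58.1; TMM scaling, filterByExpr, quasi-likelihood F test) within each assay, and the footprint to mRNA ratio as the interaction of assay and genotype, over transcripts with at least 10 counts summed in each assay. All 126 members passed these filters. P-values were adjusted over all transcripts tested, at a threshold of 0.05; DESeq2 1.42.0, other scaling, filters, floors and omitted libraries were tried. The scripts were tested on simulated data. Replicate libraries differed by more than counting noise (chi-square per degree of freedom from 1.99 to 31.8), so none was treated as a repeated sequencing of another. This does not show whether they came from separate animals. Named by identifier are the 2 members with the smallest mRNA adjusted p among those that rose without overlap of the genotypes; others are described by listed length, as extremes of level, ratio or change, except those of length 102 and 105, chosen after their values were seen. The members, the lists and the tests were chosen with earlier results of these data known. Sequences are not reported here.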

Additional observations from a re-analysis of the deposited data

How the results depend on the processing

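With other scaling, DESeq2, no filter or an adjusted threshold of 0.10, 65 to 83 of the 126 members rose in mRNA, beside 4.97 to 12.9% of all transcripts. With other sets of members, 90 of 192 rose at a floor of 50 counts, 48 of 92 at 200, 50 of 71 with 1 member per group of shared reads, 60 of 84 with 1 per listed length in each run and 58 of 74 without the runs; the share over all transcripts was 9.16%. None fell in these alternatives. Without KO mRNA libraries 2 and 3 the calls among the members were lost, and the median change was 0.97. Without WT mRNA libraries 1 and 2 nearly all were lost, and the median change was 0.29. Both fits leave 1 library in a group, and far fewer of all transcripts passed in each than with all libraries. Omission of single libraries gave counts from 14 to 124 and medians from 0.91 to 2.05. In the same omissions the footprint count ran from 0 to 2 and the footprint median from -0.64 to 0.53, with 0.0031 without KO library 2 and 0.53 without WT library 3, against -0.22. The ratio count was 12 with DESeq2, beside 0.143% of all transcripts, and 1 without WT footprint library 1, beside 0.0737%. It was 1 without numbered sample 3 of WT, beside 0.317%, and 0 without any other single numbered sample of a genotype. All of these calls and shares were for a lower ratio in KO. The cause of these movements was not tested. Omission of the runs, of KO mRNA libraries 2 and 3 and of WT footprint library 1 was chosen after seeing the data. So was the set with 1 member per listed length in each run.

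No label says that a replicate number marks a shared animal or batch. Deviations from the group means correlated by -0.00285 to 0.111 between same-numbered WT and KO mRNA libraries and by -0.41 to 0.134 between footprint libraries, with 2 and 1 of 3 numbers correlating best with their own. Between the mRNA and footprint libraries of 1 genotype they correlated by 0.071 to 0.573 in WT (2 of 3 over 0.1, 2 best with their own number) and by 0.0418 to 0.0976 in KO (0 over 0.1, 3 best with their own), which is a hint from the data and not from the design. With the replicate number as a block, 110 members rose in mRNA, beside 9.41% of all transcripts. With each numbered sample as a replicate block, the ratio fell in 25 members, beside 0.675%, and with the number alone in 0. The shallowest footprint library had 327847 counts and the shallowest mRNA library 666464.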
